A study of Mus musculus with 6 samples.

Results

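The genes described here carry RIKEN clone symbols that begin with 1700, a series of mouse cDNAs cloned from adult testis libraries, and most of them still have no descriptive name. Of 25165 symbols measured, 341 belong to the series, and the 286 with a mean of at least 1 FPKM over all 6 libraries were taken as members, after leaving out 1700027A15Rik. FPKM counts fragments relative to the length of the transcript and the depth of the library, so levels of different genes can be set side by side. The remaining 54 symbols fell short of that mean, 15 of the series being listed at 0 in every library. Just below the limit lay 1700008C04Rik, 1700119H24Rik and 1700065O20Rik with means of 0.952, 0.956 and 0.997 FPKM, and just above it lay 1700092C02Rik, 1700092K14Rik and 1700031F05Rik with 1.03, 1.05 and 1.23 FPKM. The level chose the members, and the difference between the groups did not.

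Total RNA of whole testis from C57BL/6 mice aged 8 weeks gave 6 libraries. Of these 3 are titled KO and 3 WT. The knockout removes the testis lncRNA Teshl, whose gene is 1700027A15Rik, itself a symbol of the 1700 series. The genotype field contradicts the titles for all 6 libraries, so libraries were grouped by title, and every difference below is titled KO against titled WT. The targeted gene was at 0.385 FPKM in KO replicate 1 and listed at 0 in KO replicates 2 and 3, against 1028, 989 and 1081 FPKM in WT (log2 fold change -9.86, SE 0.13, limma adjusted p = 2.91e-08), which goes with the titles. Neither separate animals within a group nor the way the deletion was made can be read from the labels, so the p-values refer to differences among libraries that may be partly technical. Library sums lay between 393622 and 413604 FPKM, and depth, estimated from the steps between the lowest values, was 28100000 to 39300000 fragments.

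Spermatogenesis proceeds from spermatogonia through meiotic spermatocytes to round and then elongating spermatids. The sex chromosomes are silenced in meiosis and stay largely repressed afterwards, while a set of X-linked and Y-linked genes, many of them in several copies, is switched on in spermatids. Testis is also known for transcribing long non-coding RNAs in great variety, and a cDNA library of adult testis is rich in transcripts of spermatocytes and spermatids. In whole testis, fewer cells of a type and less RNA per cell cannot be told apart.

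In the KO libraries 8 of the 286 members rose and 0 fell. The rises were largest in 3 X-linked genes, 1700084M14Rik, 1700003E24Rik and 1700010D01Rik, at 2.40-fold, 2.35-fold and 2.15-fold. A further X-linked gene, 1700020N15Rik, and 4 autosomal non-coding genes rose by 1.43-fold to 1.71-fold. All 286 members entered the test, limma on log2(FPKM + 1) over 12952 genes with Benjamini-Hochberg adjustment, in which 0.788% of the genes were called higher and 0.363% lower (1.15% in either direction). By unadjusted limma p under 0.05, members numbered 55 higher and 4 lower, beside 5.38% and 8.89% of all tested genes. Every called member had all 3 KO libraries above all 3 WT libraries, as the plot of called members by library shows.

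**Figure D1:**
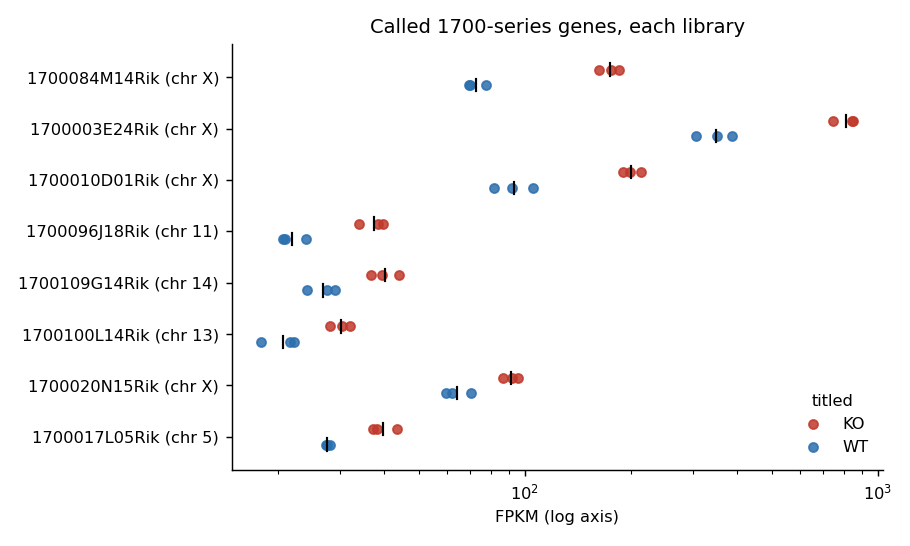
Level in each library (FPKM, log axis) of the 8 members that passed the test, ordered by fold change; red points are libraries titled KO, blue points libraries titled WT, and black ticks are group means. In each gene all KO points lie to the right of all WT points, with the widest gaps in 3 X-linked genes.

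On the X chromosome, 4 of 10 members were called higher and 0 lower, where 14.2% of all tested X-linked genes were called higher. 1700084M14Rik (X: 91575210 to 91575911 of GRCm38, minus strand) was at 162, 185 and 175 FPKM in KO replicates 1 to 3 and at 69.6, 70.1 and 77.8 FPKM in WT replicates 1 to 3. The KO libraries were all above the WT libraries (log2 fold change 1.25, SE 0.07, limma adjusted p = 1.14e-05). GENCODE M21 annotates the gene as protein coding and RefSeq as a transcribed pseudogene. 1700003E24Rik (X: 93156154 to 93156873, plus strand), a long intergenic non-coding RNA in GENCODE and a pseudogene in RefSeq, had the highest mean of all members. Summed over the gene's 2 rows, it was at 844, 851 and 746 FPKM in KO and at 349, 304 and 387 FPKM in WT (log2 fold change 1.23, SE 0.09, limma adjusted p = 0.000407). Its lowest KO library stood far above its highest WT library.

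These 2 genes are near copies of one another, 95.3% identical over their aligned transcripts, and another member, the processed pseudogene 1700019M22Rik of chromosome 12, is 92.0% identical to 1700084M14Rik. A stretch of 120 bases of each transcript in GENCODE M21 is shown to let the likeness be seen; capitals mark bases that differ from 1700003E24Rik. In 1700084M14Rik the stretch lies in the coding sequence that GENCODE gives.
1700003E24Rik, transcript bases 196 to 315: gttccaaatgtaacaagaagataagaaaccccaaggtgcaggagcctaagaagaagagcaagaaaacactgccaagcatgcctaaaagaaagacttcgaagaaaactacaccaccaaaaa
1700084M14Rik, transcript bases 170 to 289: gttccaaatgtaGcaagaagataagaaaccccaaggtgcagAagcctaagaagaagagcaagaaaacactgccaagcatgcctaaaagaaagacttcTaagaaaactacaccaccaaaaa
1700019M22Rik, transcript bases 104 to 223: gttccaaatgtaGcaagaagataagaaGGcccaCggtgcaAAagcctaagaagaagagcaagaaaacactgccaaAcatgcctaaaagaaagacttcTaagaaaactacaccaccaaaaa
In this stretch 1700084M14Rik differs from 1700003E24Rik at 3 bases and 1700019M22Rik at 8, so short reads from one gene can match another. How the authors' quantification divided such reads is not stated in the labels. BC061195, an X-linked copy 99.8% identical to 1700003E24Rik, was listed at 0 in 5 libraries and at 12.6 FPKM in WT replicate 2.

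A sum over the copies does not depend on which copy a read went to, provided that each read was counted once. The labels do not state whether it was. The 3 X-linked copies summed to 1006, 1036 and 922 FPKM in KO and to 419, 387 and 465 FPKM in WT, or 988 ± 59.0 against 424 ± 39.2 FPKM (SD, n = 3 each; 233% of WT). With the chromosome 12 pseudogene included, the sum was 1384 ± 90.9 against 708 ± 76.3 FPKM (SD, n = 3 each; 195%). In both sums all KO libraries lay above all WT libraries (two-sided exact permutation p = 0.1; designs of 3 against 3 go no lower). The pseudogene by itself was at 377, 440 and 372 FPKM in KO and at 278, 251 and 324 FPKM in WT. Its groups did not overlap, but it missed the threshold (log2 fold change 0.48, SE 0.10, limma adjusted p = 0.0912) and passed without WT replicate 3 (log2 fold change 0.58, limma adjusted p = 0.00611).

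1700010D01Rik (X: 95732586 to 95733265, minus strand), a long intergenic non-coding RNA, was at 198, 213 and 190 FPKM in KO and at 92.2, 81.7 and 105 FPKM in WT. The KO values were all above the WT values (2.15-fold, log2 fold change 1.10, SE 0.09, limma adjusted p = 0.000507). It is 97.6% identical to Gm5941 (X: 92489949 to 92490681, plus strand), which is annotated as protein coding. Gm5941 was at 141, 165 and 143 FPKM in KO and at 73.3, 66.0 and 83.0 FPKM in WT (log2 fold change 1.01, SE 0.09, limma adjusted p = 0.00105). The pair summed to 350 ± 24.2 FPKM in KO and 167 ± 20.2 FPKM in WT (SD, n = 3 each; 209%, two-sided exact permutation p = 0.1).

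1700020N15Rik (X: 69945300 to 69945978, plus strand), a protein-coding gene, was at 95.3, 91.7 and 86.9 FPKM in KO and at 62.1, 59.7 and 70.3 FPKM in WT. Its groups were apart, with a smaller gap than in the other called X-linked members (log2 fold change 0.51, SE 0.07, limma adjusted p = 0.0085). Without WT replicate 1 it missed the threshold (limma adjusted p = 0.0575). Its near copy Gm6812 (X: 68892375 to 68893053, minus strand), 99.4% identical, was at 86.7, 91.1 and 86.9 FPKM in KO and at 56.2, 54.6 and 64.8 FPKM in WT (log2 fold change 0.59, SE 0.07, limma adjusted p = 0.00335). The pair summed to 180 ± 4.97 against 123 ± 11 FPKM (SD, n = 3 each; 147%, two-sided exact permutation p = 0.1).

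The promoters of these pairs are alike as well. The best matching stretches of 150 bases upstream of both start sites in RefSeq (GRCm38.p6) are shown to let that likeness be seen; capitals mark bases that differ within a pair. Since the transcripts of a pair are also nearly identical, reads may have been shared between copies, and how far each copy moved by itself was not tested.
1700010D01Rik, chrX:95733335-95733484, minus strand: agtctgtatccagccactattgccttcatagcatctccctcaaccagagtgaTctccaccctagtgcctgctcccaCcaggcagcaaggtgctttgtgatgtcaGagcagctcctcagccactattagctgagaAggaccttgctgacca
Gm5941, chrX:92489783-92489932, plus strand: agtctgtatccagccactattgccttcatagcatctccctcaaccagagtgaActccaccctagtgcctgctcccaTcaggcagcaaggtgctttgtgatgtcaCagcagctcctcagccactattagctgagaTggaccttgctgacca
1700020N15Rik, chrX:69945121-69945270, plus strand: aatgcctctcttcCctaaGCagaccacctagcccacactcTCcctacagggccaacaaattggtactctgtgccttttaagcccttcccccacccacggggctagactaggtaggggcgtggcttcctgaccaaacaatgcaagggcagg
Gm6812, chrX:68893083-68893232, minus strand: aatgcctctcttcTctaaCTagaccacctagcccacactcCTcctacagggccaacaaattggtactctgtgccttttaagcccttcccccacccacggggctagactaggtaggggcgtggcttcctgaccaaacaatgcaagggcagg
The stretches differ at 4 bases in the first pair (97.3% identity) and at 5 bases in the second (96.7%). The table of promoters has no entry for 1700084M14Rik or 1700003E24Rik.

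**Figure D2:**
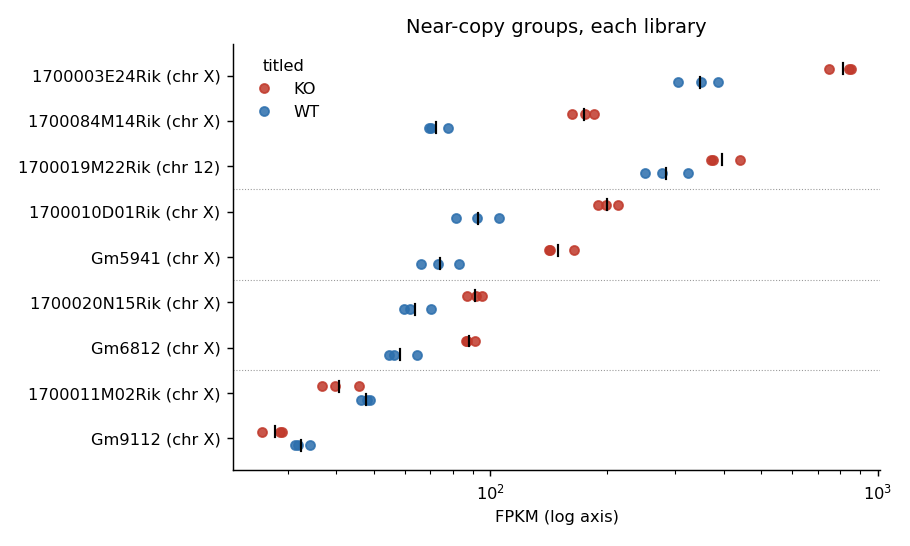
Level in each library (FPKM, log axis) of X-linked members, of their near copies and of 1700019M22Rik on chromosome 12; red points are libraries titled KO, blue points libraries titled WT, black ticks group means, and dotted lines part the groups of copies. BC061195, listed at 0 in 5 libraries, is not drawn. In the upper groups KO lies to the right of WT in each gene drawn, and in the lowest pair, 1700011M02Rik and Gm9112, KO lies to the left.

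The other 6 X-linked members did not pass the test. 1700011M02Rik, a protein-coding gene, was at 45.7, 39.8 and 36.8 FPKM in KO and at 46.3, 48.9 and 47.9 FPKM in WT (log2 fold change -0.23, SE 0.08, limma adjusted p = 0.235). Its near copy Gm9112, 94.5% identical, had the same sign (log2 fold change -0.22, SE 0.06, limma adjusted p = 0.183), and the pair summed to 85.4% of WT (two-sided exact permutation p = 0.1). In both genes the groups did not overlap, with KO the lower. 1700013H16Rik was at 19.8, 23.4 and 19.8 FPKM in KO and at 16.2, 13.4 and 20.1 FPKM in WT, overlapping through WT replicate 3 alone (log2 fold change 0.34, limma adjusted p = 0.327), and it passed without that library (log2 fold change 0.48, limma adjusted p = 0.0434). 1700080O16Rik, 1700031F05Rik and 1700111N16Rik had log2 fold changes of 0.13, 0.28 and 0.14 (limma adjusted p = 0.419, 0.461 and 0.469). 1700018G05Rik, 86.9% identical to 1700011M02Rik, was the flattest, at -0.03 on the log2 fold scale (limma adjusted p = 0.893). Not all X-linked members therefore had higher values in KO.

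The single Y-linked member, the non-coding 1700020D14Rik, was at 99.2, 90.7 and 77.1 FPKM in KO and at 69.4, 62.9 and 74.1 FPKM in WT. The groups did not overlap, KO being the higher, and the difference did not pass (log2 fold change 0.36, SE 0.10, limma adjusted p = 0.158).

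On the autosomes 4 of 275 members were called higher and 0 lower, beside 0.21% of all tested autosomal genes called higher. All 4 are non-coding. 1700096J18Rik (chromosome 11, 109346839 to 109353651, plus strand), a long intergenic non-coding RNA, was at 38.4, 39.7 and 33.9 FPKM in KO and at 20.6, 20.9 and 24 FPKM in WT. The gap between the groups was wider than the range within either (1.71-fold, log2 fold change 0.75, SE 0.08, limma adjusted p = 0.0016). Its nearest tested gene, Gna13, which encodes a G protein alpha subunit, lies 9180 bp away and had -0.03 on the log2 fold scale (SE 0.05, limma adjusted p = 0.797). Cep112, on the other side at 486224 bp, had 0.27 (limma adjusted p = 0.192).

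In GENCODE M21, 1700109G14Rik (chromosome 14, 61292980 to 61318146, minus strand) is an antisense gene that spans Arl11. Arl11 is a gene of the ADP-ribosylation factor family on the plus strand, at 61309753 to 61311936. The RefSeq promoter of 1700109G14Rik lies at 61305285 to 61305584, and a transcript from that start would run away from Arl11. 1700109G14Rik was at 36.7, 44.1 and 39.5 FPKM in KO and at 27.4, 24.2 and 29.0 FPKM in WT (log2 fold change 0.56, SE 0.09, limma adjusted p = 0.0155). Arl11 was at 9.07, 10.2 and 9.65 FPKM in KO and at 6.26, 6.48 and 6.78 FPKM in WT, and passed too (log2 fold change 0.50, SE 0.06, limma adjusted p = 0.00586). Both genes of the locus were thus higher in all KO libraries. The kit keeps strand, but the annotation and strand setting of the quantification are not stated in the labels. Reads of the 2 genes may therefore not be separable. The call of 1700109G14Rik ended without KO replicate 2, KO replicate 3 or WT replicate 1 (limma adjusted p = 0.0518, 0.0837 and 0.0802), and with no filter on low values (0.0607).

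1700100L14Rik (chromosome 13, 70573241 to 70576110, plus strand) is antisense to Ice1, which encodes a subunit of the little elongation complex. It was at 28.0, 32.0 and 30.3 FPKM in KO and at 22.2, 17.9 and 21.6 FPKM in WT (log2 fold change 0.53, SE 0.09, limma adjusted p = 0.0217). Ice1 was at 2.02 ± 0.151 against 2.10 ± 0.0190 FPKM (SD, n = 3 each; log2 fold change -0.04, limma adjusted p = 0.791), so the antisense gene rose where its partner was not called. Without KO replicate 2 or KO replicate 3 the call of 1700100L14Rik ended (limma adjusted p = 0.1 and 0.117), as it did with no filter (0.0746). The next tested gene outside Ice1, the RIKEN gene 4930520P13Rik at 325119 bp, was low and rose to 1.51 ± 0.161 FPKM in KO against 0.858 ± 0.0681 FPKM in WT (SD, n = 3 each; log2 fold change 0.43, limma adjusted p = 0.0339).

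1700017L05Rik (chromosome 5, 77465488 to 77468851, plus strand), a long intergenic non-coding RNA, was at 43.3, 38.2 and 37.0 FPKM in KO and at 27.3, 28.0 and 27.5 FPKM in WT. The coefficient of variation was 1.24% in WT and 8.47% in KO, and the groups were well apart (log2 fold change 0.50, SE 0.07, limma adjusted p = 0.00721). The neighbours Igfbp7, a gene of a secreted growth factor binding protein, and Adgrl3, an adhesion receptor gene, did not pass (log2 fold changes of -0.14 and -0.0015, limma adjusted p = 0.455 and 0.994). Among the 16 nearest tested genes beside called members, 4 were themselves called, beside 1.15% of all tested genes. They were the X-linked copies Gm5941 and Gm6812, 4930520P13Rik, and the X-linked Gm14781. Of all tested X-linked genes 14.2% were called higher. Gm14781 lies 56283 bp from 1700084M14Rik and rose to 13.1 ± 1.65 FPKM in KO against 7.71 ± 0.713 FPKM in WT (SD, n = 3 each; log2 fold change 0.69, limma adjusted p = 0.0088).

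No member was called lower. The closest was 1700120K04Rik, named here after its values were seen, which lies antisense to the ubiquitin ligase gene Rnf40 on chromosome 7. It was at 55.1, 54.8 and 48.6 FPKM in KO and at 72.4, 65.2 and 64.2 FPKM in WT, with KO the lower throughout (log2 fold change -0.34, SE 0.07, limma adjusted p = 0.057). It passed without WT replicate 3 (log2 fold change -0.38, limma adjusted p = 0.0353) and when genes needed a mean of at least 5 FPKM in a group (0.0424). Rnf40 had -0.14 on the log2 fold scale (limma adjusted p = 0.484).

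Beyond the called genes, most members had slightly higher values in KO. Of 286 members 227, or 79.4%, had a positive log2 fold change, beside 34.3% of all tested genes. The median was 0.097 over the members and -0.043 over all tested genes, and the members' median was 0.135 with median-of-ratios scaling and 0.124 with upper-quartile scaling. Groups did not overlap in 47 members with KO higher (16.4%, beside 5.92% of all tested genes) and in 8 with KO lower (2.8%, beside 15.8%). Most of these differences were small: 5 uncalled members had a change over 0.5 on the log2 scale, as the plot of fold change against level shows.

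**Figure D3:**
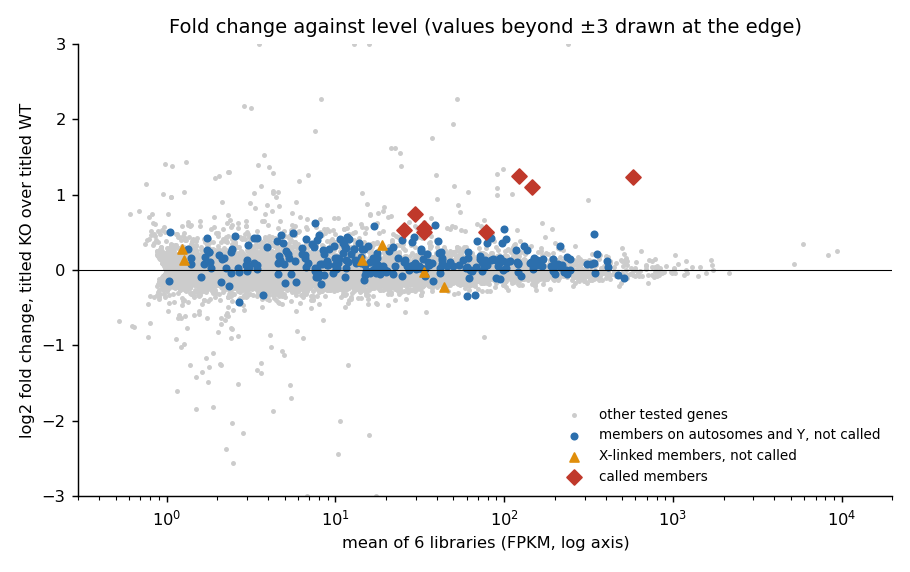
Log2 fold change (titled KO over titled WT, on the log2(FPKM + 1) scale) against the mean of 6 libraries (FPKM, log axis); grey points are other tested genes, blue circles uncalled members on autosomes and Y, orange triangles uncalled X-linked members and red diamonds the 8 called members. The called members lie between 0.50 and 1.25, and most blue points lie a little above 0.

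The uncalled members with the widest changes were uneven between libraries. 1700072B07Rik was at 9.21, 11.3 and 7.43 FPKM in KO and at 4.43, 4.50 and 8.60 FPKM in WT (log2 fold change 0.63, SE 0.28, limma adjusted p = 0.389). WT replicate 3 lay among the KO libraries, and without it the gene passed (log2 fold change 0.90, limma adjusted p = 0.0267). 1700122H20Rik had the same pattern, with 23.1, 20.9 and 17.5 FPKM in KO and 12, 10.7 and 17.9 FPKM in WT (log2 fold change 0.59, SE 0.19, limma adjusted p = 0.275; without WT replicate 3, 0.79 and 0.00631). 1700016K05Rik, antisense to the receptor phosphatase gene Ptprm, was at 47.2, 49.6 and 41.6 FPKM in KO and at 42.6, 18.9 and 33.4 FPKM in WT, where WT replicate 2 was the low library (log2 fold change 0.60, SE 0.32, limma adjusted p = 0.448). 1700031P21Rik was at 111, 143 and 102 FPKM in KO and at 94.3, 71.4 and 76.4 FPKM in WT, with groups apart but spread (log2 fold change 0.54, SE 0.15, limma adjusted p = 0.200). 1700092K14Rik, near the lower limit of level, had 0.51 on the log2 fold scale (SE 0.23, limma adjusted p = 0.387). The widest spread within a group also fell on low genes, among them 1700096P03Rik, 1700054M17Rik and 1700113B09Rik with means of 1.75, 1.33 and 2.36 FPKM.

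The libraries contributed unequally. KO replicate 2 was the highest of the 6 libraries in 173 members (60.5%, beside 19.3% of all tested genes), and WT replicate 2 was the lowest in 140 members (49.0%, beside 16.3%). The median log2 difference of the members from the WT mean was 0.045, 0.20 and 0.089 in KO replicates 1 to 3 and -0.019, -0.066 and 0.088 in WT replicates 1 to 3. WT replicate 3 thus lay level with KO replicate 3, and the groups overlapped. Without WT replicate 3 the members called higher numbered 22, against 6 to 10 when any other library was left out. Calls rose over the whole table as well: 184 of 12939 tested genes were higher without that library, against 102 of 12952 with all 6. Without KO replicate 2 the members' median fell to 0.059.

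**Figure D4:**
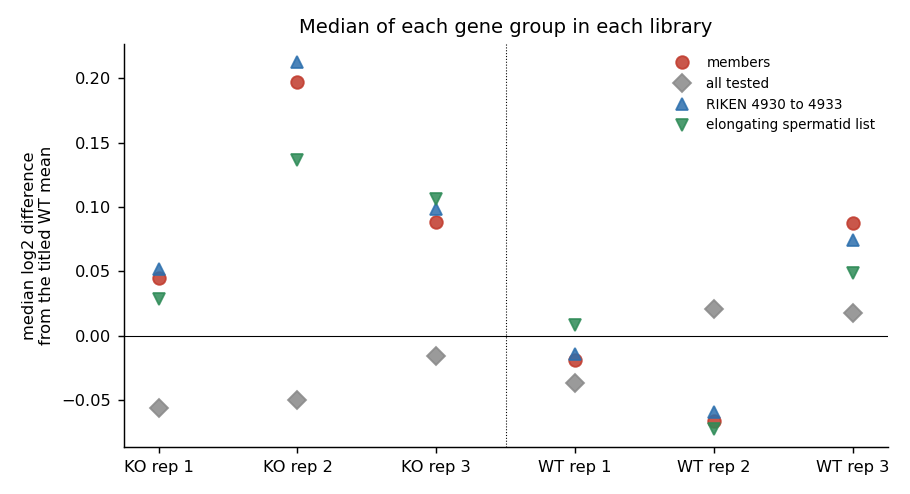
Median log2 difference from the mean of the WT libraries, in each of 6 libraries, for the members (red circles), all tested genes (grey diamonds), RIKEN symbols of the clone sets of 4930520P13Rik and 4933434E20Rik (blue triangles up) and the elongating spermatid list (green triangles down). Members, those RIKEN symbols and spermatid genes stand highest in KO replicate 2 and lowest in WT replicate 2, and all tested genes do not.

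Summed over all members, the KO libraries held 17174, 18746 and 17312 FPKM and the WT libraries 15883, 15179 and 16843 FPKM, or 17744 ± 870 against 15968 ± 835 FPKM (SD, n = 3 each; 111% of WT, two-sided exact permutation p = 0.1). The groups did not overlap. Without the X-linked members the sums were 16352 ± 822 and 15278 ± 765 FPKM (SD, n = 3 each; 107%), and the groups overlapped (two-sided exact permutation p = 0.3). The elongating spermatid list has genes such as Prm1, which encodes a protamine of condensed sperm chromatin. The list's sum stood in the same order over the 6 libraries as the sum of all members. Without the X-linked members that order did not hold, WT replicate 3 standing above KO replicates 3 and 1. The list's sum was 37598 to 39884 FPKM in KO and 32261 to 36357 FPKM in WT (113%, two-sided exact permutation p = 0.1). Prm1, Prm2, Tnp1 and Tnp2 held most of it, at 10218, 8837, 5397 and 6615 FPKM in KO against 8608, 7733, 5110 and 5207 FPKM in WT. Of the list's 13 tested genes limma called 0 (unadjusted p under 0.05 in 5, each higher). Positive log2 fold changes were found in 11, with Odf1 and Smcp at -0.04 and -0.03. The median was 0.10, and no tested gene of the list was at 0. Its part in the members' shift was not tested.

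Except for the X-linked multicopy spermatid genes, other markers moved less or the other way. The round spermatid sum was at 103% of WT and the spermatocyte sum at 104%, with groups overlapping and 0 of 14 genes called in each. The spermatogonia sum was at 93.1%, 170 to 178 FPKM in KO and 181 to 194 FPKM in WT, with 0 of 8 tested genes called. Ddx4, at 130 against 134 FPKM, held most of that sum, and Uchl1 was at 22.7 against 29.8 FPKM. Of the 8 tested genes 2 had positive log2 fold changes. Sums of Sertoli and Leydig markers were at 93.0% and 93.7% of WT, peritubular myoid markers at 111%, macrophage markers at 92.2%, endothelial markers at 87.4% and red blood cell markers at 97.5%, with 0 genes called in each of these lists. Actg2, at 142 against 122 FPKM and not called, held most of the myoid sum: 2 of its 7 markers had positive log2 fold changes and the median was -0.13. Ldhc (1740 against 1667 FPKM) held most of the spermatocyte sum, Clu (313 against 335 FPKM) of the Sertoli sum and Insl3 (1378 against 1453 FPKM) of the Leydig sum. Positive log2 fold changes were found in 8 of 14, 1 of 8 and 0 of 8 tested genes of these lists. Of the epididymis markers, Lcn5 and Adam7 were listed at 0 in all libraries, and Cst8, which testis itself expresses, made up nearly all of that list's sum (109% of WT). X-linked multicopy spermatid genes, with a sum at 183% of WT, had 10 of 11 tested genes called higher and a median of 0.999. Long-arm Y genes, with a sum at 48.5% of WT, had 1 of 4 tested genes called lower. In 3 of the 4 all KO libraries lay below all WT libraries. Levels were low, Sly being at 0.346 against 2.42 FPKM, Ssty1 at 0 against 2.31 FPKM and Ssty2 at 4.61 against 7.14 FPKM. Orly went the other way, at 1.25 against 0.911 FPKM (log2 fold change 0.22, not called). Earlier results of these same data, known when the lists were chosen, had shown both the X-linked rise and the fall of the Y list. The part of these cell types in the members' values was not tested.

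Other RIKEN symbols offer a comparison. Taken first were 365 symbols, at a mean of at least 1 FPKM, of the clone sets to which 4930520P13Rik and 4933434E20Rik belong. Many of them also came from testis. Of the 365, 78.4% had positive log2 fold changes, the median was 0.12, and 10 were called higher and 0 lower. Over all tested genes 0.788% were called higher and 0.363% lower. Of the 345 autosomal symbols in this set, 6 were called higher and 0 lower. Among 228 other RIKEN symbols 53.5% were positive, the median was 0.0096, and 1 was higher and 0 lower. The members resembled the first set in these counts, and the difference between sets was not tested.

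The kinds of transcript differed in level and less in direction. GENCODE and RefSeq class 89 members as protein coding, 184 as non-coding and 13 as pseudogenes, with median levels of 77.7, 11.9 and 17.3 FPKM. Among autosomal members, 66 of 82 protein-coding genes (80.5%) and 141 of 180 non-coding genes (78.3%) had positive log2 fold changes, with medians of 0.071 and 0.11 and with 0 and 4 called. The summed FPKM was 105% of WT for the autosomal protein-coding members and 110% for the autosomal non-coding ones, with overlapping groups in both (two-sided exact permutation p = 0.3 and 0.2). By level, the share with positive values was 77.8%, 77.5%, 80.3% and 81.9% in 4 groups of members from the lowest to the highest. The called members lay in the upper 2 of these groups, 4 in each, beside 0.788% of all tested genes called higher at any level. Fold changes of log2(FPKM + 1) understate low genes, and calls by level were not compared with those of all tested genes.

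**Figure D5:**
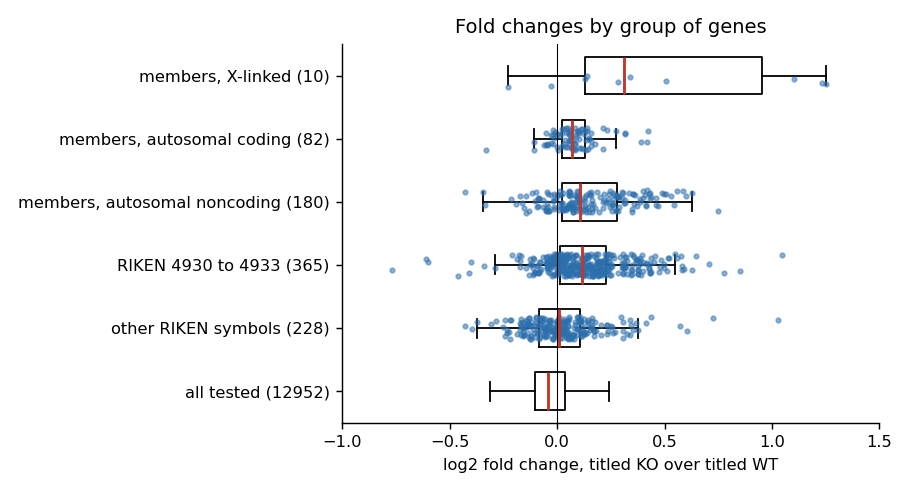
Log2 fold changes (titled KO over titled WT) of members by chromosome and kind of transcript, beside other RIKEN symbols and all tested genes, with the number of genes in brackets; boxes span the interquartile range with the median in red, whiskers reach the last value within 1.5 box lengths, and points are genes (not drawn for all tested). The X-linked members spread from -0.23 to 1.25, and the medians of the autosomal members lie at 0.071 and 0.11, above the -0.043 of all tested genes.

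Members lay on 21 chromosomes, 275 of them on autosomes. Medians were positive on 18 of the autosomes and -0.014 on chromosome 7, where 7 of 14 members had a positive log2 fold change. Another gene overlaps 137 members, and 149 overlap none. Members without an overlap had a median of 0.10 and those with one 0.093. The share with positive values was 82.6% and 75.9%. For 56 members a gene on the opposite strand was tested, 59 partners in all. The partners' median log2 fold change was -0.031 and that of the members 0.088, and 2 of the 59 partners were called, beside 1.15% of all tested genes: Arl11, and 1700020N15Rik, itself a called member and the partner of 1700111N16Rik. Members are thus among the partners too.

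The most abundant members were mostly flat. Levels ran from 1.03 to 580 FPKM with a median of 19.5, 51 members reached 100 FPKM, and the 10 highest held 24.3% of the summed FPKM. Next to 1700003E24Rik at the top came the protein-coding 1700003F12Rik, with 495 ± 12.7 against 534 ± 31.8 FPKM (SD, n = 3 each; log2 fold change -0.11, limma adjusted p = 0.393), and 1700029F12Rik, with 464 ± 9.15 against 484 ± 17.5 FPKM (SD, n = 3 each; -0.06, 0.535). 1700015G11Rik, 1700042G07Rik, 1700123L14Rik, 1700008K24Rik and 1700013G24Rik, all with means of 328 to 410 FPKM, had log2 fold changes between -0.04 and 0.12, and none passed (limma adjusted p = 0.438 to 0.763). 1700009N14Rik, whose transcript is 85.4% identical to that of Ran, the small GTPase of nuclear transport, over 52.7% of its length, was at 354, 407 and 376 FPKM in KO and at 320, 312 and 348 FPKM in WT. Its groups lay apart without a call (log2 fold change 0.21, limma adjusted p = 0.192), and Ran had -0.08 (0.486). 1700102P08Rik, which mice need for male fertility, was at 71.6, 73.4 and 75.5 FPKM in KO and at 74.1, 74.9 and 74.2 FPKM in WT, with overlapping groups (log2 fold change -0.02, limma adjusted p = 0.866; 0.02 with median-of-ratios scaling). Among members within a group the median coefficient of variation was 8.52% in KO and 8.89% in WT.

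Promoters were searched because the members share a tissue. RefSeq promoters (GRCm38.p6, 250 bases before to 50 after a start) were found for 229 members, 246 promoters in all, and motifs were looked for on both strands in these and in all 32851 promoters. The X-box, the motif of RFX factors, which drive genes of cilia and spermatids, was searched as the letters that stand in capitals in the first X-box window printed next, and it was in 10 promoters of members (4.07%, beside 0.563% of all). Counted from the start site, the members' matches began at positions from -68 to -4. The MYB-type letters GGCAGTT, which A-MYB of spermatocytes is known to bind, were in 25 (10.2%, beside 4.12%). The cyclic AMP response element TGACGTCA, the site of CREM in spermatids, was in 5 (2.03%, beside 1.79%), its variant TGACGTAA in 5 (2.03%, beside 0.499%), TATAAA in 27 (11%, beside 13.6%) and the E-box CACGTG in 23 (9.35%, beside 7.15%). A match describes letters and not a bound site.

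Members with the X-box had a median log2 fold change of 0.13, and those searched without it had 0.10. A choice of X-box windows from genes of different kinds is shown, with the match in capitals.
1700001K19Rik, chr12:110682667-110682696, minus strand: gtcacactggGTTGCCATGGagatacctgt
1700012C14Rik, chr6:30460963-30460992, plus strand: agctctgtttCCATGGCAACctagagggcg
1700030C14Rik, chr2:152654350-152654379, minus strand: gtggtggttaCCATGGCAACtatctctgca
1700109H08Rik, chr5:3571638-3571667, plus strand: tggctgggaaGTTGCCATGGccacattctg
1700001K19Rik is protein coding, 1700012C14Rik a long intergenic non-coding RNA and 1700030C14Rik an antisense gene. Their means were 119, 10.3 and 43.0 FPKM and their log2 fold changes 0.11, 0.16 and 0.13. 1700109H08Rik, also protein coding, had the widest change of the 10 (log2 fold change 0.39) and was called only without WT replicate 3 (0.50, limma adjusted p = 0.0344). Of the 10 genes, 1700010I14Rik and 1700125H20Rik, whose windows are not shown, had negative log2 fold changes of -0.05 and -0.02.

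The variant TGACGTAA was the only one of the 6 motifs present in the promoter of 1700017L05Rik, where it reads on the other strand. All 5 windows with it are shown, since the median log2 fold change of their genes was 0.42, beside 0.098 for the members searched without it.
1700016G22Rik, chr13:5858097-5858126, minus strand: cagatctgataTTACGTCAgcactgggcag
1700017L05Rik, chr5:77465426-77465455, plus strand: ttgagtatgtaTTACGTCAcaatgagaacc
1700023C21Rik, chr11:109845805-109845834, plus strand: tccagtagctgTGACGTAActgcctggtgc
1700031P21Rik, chr12:52602373-52602402, minus strand: gcttccttctaTGACGTAAaggaggagttg
1700080O16Rik, chrX:51972802-51972831, minus strand: agagccatttgTGACGTAAgcggtcctgca
Of the 5 genes, 1700017L05Rik alone was called. 1700023C21Rik was at 9.68, 13.9 and 12.9 FPKM in KO and at 9.67, 6.06 and 11.4 FPKM in WT, with overlapping groups (log2 fold change 0.42, limma adjusted p = 0.469), and 1700016G22Rik had 0.18 (0.429). With 5 genes picked out after their values were known, the higher median is a description. Members with the element TGACGTCA itself had a lower median, 0.023, beside 0.10 for those searched without it.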

How the data were processed

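Directional RNA-seq libraries of testis were aligned with HISAT2 to mm10, per the submitters' processing notes; versions, quantifier, annotation and strand setting were not given in the sources used here. The authors deposited 1 table per library, whose FPKM unit was inferred from the spacing and sums of its numbers. Rows were summed per symbol, which touched 3 members, 1700003E24Rik among them. The test, on 12952 genes averaging 1 FPKM or more in a group, was limma 3.58.1 under R 4.3.3, trend and robust, of log2(FPKM + 1), at a Benjamini-Hochberg threshold of 0.05; such fold changes understate low genes. In simulated libraries of 12952 genes the test found 78% of 100 genes changed by 0.5 and 95% of 100 changed by 1, with 9 false among 182 calls. A near copy is a BLAST 2.17.0 match of 90% identity or more that covers 50% or more of the longest transcript. Sums were compared by exact permutation. Positions came from GENCODE M21 for 276 members and RefSeq for 10, on GRCm38, the assembly of mm10; promoter sequences are RefSeq's. Described were the called members, the 10 highest, those at the limit of level, X-linked and Y-linked ones, the 5 largest uncalled changes and spreads, and a few members of known role (6 of these tested, limma calling 0, with 1 at unadjusted p under 0.05, higher). A rule on shared protein sequence was not used here. Members and lists were chosen with earlier results of these data known. Other pseudocounts, filters, scalings, a replicate block, single rows and leaving out each library were tried. Figures were drawn with matplotlib 3.10.9.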

Additional observations from a re-analysis of the deposited data

How the results depend on the processing

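The 8 members called higher by limma stayed between 6 and 10 in number under other pseudocounts, filters and scalings, without robust estimation, on symbols of a single row, and without each library but WT replicate 3. On symbols of a single row 1700003E24Rik, which has 2 rows, was not tested. Leaving out single libraries gave 6 to 22 (22 without WT replicate 3, where 184 of all 12939 tested genes were called higher). The number called lower was 0 to 1 when single libraries were left out, being 1 without KO replicate 1 (1700001F09Rik, log2 fold change -0.53, limma adjusted p = 0.0213) and without WT replicate 3 (1700120K04Rik), and 1 (1700120K04Rik) with a minimum mean of 5 FPKM. Among the 149 members that overlap no other gene, a choice made after seeing the data, 2 were called higher, both X-linked. Among the 137 that overlap another gene 6 were called higher, beside 0.788% of all tested genes. Deviations of libraries with the same replicate number correlated at 0.065, -0.13 and 0.061, so the numbers do not pair the libraries, nor did every library correlate best with its own number. With the replicate number as a block, 4 members were called higher; limma adjusted p-values became 0.103 for 1700109G14Rik, 0.124 for 1700100L14Rik, 0.0693 for 1700020N15Rik and 0.0519 for 1700017L05Rik. Small, uncalled log2 fold changes reversed for 1700123L14Rik (0.0007, median-of-ratios scaling) and 1700102P08Rik (0.0248 with median-of-ratios and 0.0123 with upper-quartile scaling). Leaving out single libraries also reversed signs, with ranges of -0.0372 to 0.0007 for 1700102P08Rik, -0.3375 to 0.0136 for 1700092C02Rik, -0.0217 to 0.0864 for 1700015G11Rik, -0.0039 to 0.1537 for 1700013F07Rik and -0.4798 to 0.0883 for 1700113B09Rik; the cause was not tested. The members' median ran from 0.0588 to 0.1353 over all alternatives. Whether depth or the spread between libraries sets the smallest change that could be called was not tested.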
